A study of Mus musculus with 18 samples.

Results

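Type I interferon-stimulated genes, a set of 40 genes listed by symbol, were followed in mouse bone marrow-derived macrophages that had been given plasma of 4 kinds of mice. A member was any row of the deposited value table whose platform gene symbol was on the list. This gave 39 of the 40 genes, 1 row each, among 25428 rows in all, of which 24705 carried a gene symbol. Ifi44 had no row under that symbol and was not analysed here.

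Type I interferons are antiviral cytokines that bind the receptor made of Ifnar1 and Ifnar2. The kinases Jak1 and Tyk2 then start a signal through which a complex with Stat2 and Irf9 enters the nucleus and binds a DNA motif called the interferon-stimulated response element (ISRE) in front of the genes followed here. Their products sense viral nucleic acid, degrade or block viral RNA, and tag proteins with the ubiquitin-like protein ISG15. Irf7, itself an interferon-stimulated gene, raises interferon production in turn, and macrophages keep a low level of this programme without infection.

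Marrow from mouse femurs was grown for 4 days in medium with 10% fetal calf serum and 30 ng/ml M-CSF, the growth factor that drives macrophage differentiation, and the serum was then replaced for 48 hours by 10% mouse plasma. Plasma donors had eaten Western diet for 8 weeks and were wild type C57BL/6J (called WT, 4 arrays), ApoE knockout (ApoE, 5 arrays), knockout for both ApoE and Stab1 (AS1, 3 arrays) or knockout for both ApoE and Stab2 (AS2, 6 arrays). ApoE is the apolipoprotein whose loss raises plasma cholesterol, and Stab1 and Stab2 encode stabilin-1 and stabilin-2, scavenger receptors of liver sinusoidal endothelium. ApoE, AS1 and AS2 plasma all lack ApoE, every plasma came from Western diet-fed mice, and the genotype is that of the plasma donor. The age of the donors, the genotype and strain of the marrow donors, and whether plasma was pooled or replicates came from separate cultures are not stated in the sources used here, so the p-values measure the spread between arrays, which may be technical. ApoE against WT addresses what the knockout changes in plasma as macrophages read it, and AS1 and AS2 against ApoE address the added loss of each stabilin.

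RNA was hybridised to Affymetrix arrays, and values are log2 after robust multi-array averaging, so a difference of 1 is a 2-fold change. They have no read depth, and the number of arrays limits precision. Arrays of a group correlated at 0.990 to 0.998 over all rows, lowest among the ApoE arrays, where replicates 2 and 5 had stood apart in earlier work on these data. The column of ApoE replicate 1 held 24162 distinct values where each of the other 17 held 7087, so it was not made in quite the same way as they were, and no label says how. Without it, 21 members fell and 1 rose from WT to ApoE, 13 rose and 1 fell in AS1, and 23 rose and 1 fell in AS2. All 7 macrophage markers with a row (of 8) had group means above 4.37, the median of an array, in every group. Their mean level per array was 0.38 to 0.61 below the WT mean in the 5 ApoE arrays, 0.01 to 0.17 below it in AS1 and 0.37 to 0.55 below it in AS2. All 12 neutrophil markers rose from ApoE to AS1 (median difference 1.45), where 7.74% of all rows rose. These markers all fell from AS1 to AS2, where 10.6% of all rows fell. Their mean log2 level was 7.43 to 7.72 in WT, 7.29 to 8.43 in ApoE, 9.22 to 9.48 in AS1 and 6.87 to 7.53 in AS2, and Ly6g was the marker at or below the array median in every group. Of 6 markers of plasmacytoid dendritic cells, which make type I interferon, 3 rose and 1 fell from ApoE to AS1. Among all rows, 7.74% rose and 8.8% fell there. Siglech and Ly6d of this list averaged 4.70 and 4.54 in ApoE, near the array median. The mean of 5 B cell markers was also higher in AS1 than in ApoE, at 0.33 above and 0.06 below WT. Only 1 of these 5 was above the array median in each group. Fewer cells of a type and less RNA per cell cannot be told apart in these bulk samples, and the part of other cells in the results was not tested.

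Promoter sequence is shown for members in which the ISRE core could be read beside the measurements. RefSeq promoter windows (mouse build GRCm38.p6, 250 bases before to 50 after the start) were at hand for 28 members, in 34 windows. The ISRE core, taken as GAAA, any 2 bases and GAAA again and searched on both strands, was in 14 of the 28 genes (50.0%), against 1079 of all 27025 genes (3.99%). The GAS core TTCNNNGAA, the element of the interferon-gamma pathway, was in 6 of the 34 windows (17.6%), against 8.30% of 32851 windows. Both cores may overlap copies of themselves, and a match is a description of the letters, not of a bound site. The 3 whole promoters are those of Ifi203, a nucleic acid sensor of the AIM2 family (chr1:173942443-173942742, minus strand), Oas3, which makes the second messenger that switches on RNase L (chr5:120777610-120777909, minus strand), and Ddx58, the RNA sensor RIG-I (chr4:40239776-40240075, minus strand). They are printed 5′ to 3′ along the gene, with each ISRE core, on either strand, in capitals.
Ifi203: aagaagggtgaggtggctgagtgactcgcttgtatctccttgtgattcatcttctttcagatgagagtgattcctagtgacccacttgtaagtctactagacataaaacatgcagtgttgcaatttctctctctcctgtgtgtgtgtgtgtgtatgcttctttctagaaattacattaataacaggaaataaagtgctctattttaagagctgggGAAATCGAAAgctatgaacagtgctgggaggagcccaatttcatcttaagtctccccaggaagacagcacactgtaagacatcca
Oas3: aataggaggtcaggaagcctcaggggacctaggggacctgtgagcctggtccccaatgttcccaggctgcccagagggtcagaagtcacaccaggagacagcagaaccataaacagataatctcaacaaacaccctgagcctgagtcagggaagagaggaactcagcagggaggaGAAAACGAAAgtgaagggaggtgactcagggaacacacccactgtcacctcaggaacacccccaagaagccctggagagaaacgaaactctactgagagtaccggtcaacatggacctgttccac
Ddx58: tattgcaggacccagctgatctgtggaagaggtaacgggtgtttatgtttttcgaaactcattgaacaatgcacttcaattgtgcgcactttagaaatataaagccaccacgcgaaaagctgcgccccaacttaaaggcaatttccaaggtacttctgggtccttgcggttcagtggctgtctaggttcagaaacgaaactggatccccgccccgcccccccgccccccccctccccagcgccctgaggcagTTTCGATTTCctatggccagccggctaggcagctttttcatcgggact

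Windows of 30 bases show the same core in 4 further members, for which no rule of choice was set. They are Stat2, a subunit of the transcription factor itself (chr10:128270268-128270297, plus strand), Isg15, the ubiquitin-like protein (chr4:156200875-156200904, minus strand), and the neighbouring paralogs Oas1a (chr5:120907524-120907553, minus strand) and Oas1g (chr5:120887610-120887639, minus strand). In all 4 the mean was lower in ApoE than in WT and higher in AS2 than in ApoE, though not every difference passed. In AS1 against ApoE only Oas1g of the 4 passed, and it fell. Such a low ApoE mean was not particular to these 4, as ApoE was the lowest group in 32 of 39 members. Capitals mark the cores, of which Isg15 holds 3 that overlap.
Stat2: caccctggTTTCAGTTTCctttccctagaa
Isg15: tgccgtagGAAAAGGAAACCGAAACAGAAA
Oas1a: cttctcggGAAATGGAAACTGAAAatctac
Oas1g: cttctcggGAAATGGAAACTGAAAatctac

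The Oas1a and Oas1g windows were identical in all 30 bases. Their whole promoters matched in 207 of 298 bases (69.5%) without gaps. The 28 members with a window included 27 with values, since Ifi44 had none. Of the 14 with an ISRE core, 6 fell from WT to ApoE, with a median difference of -0.29. Of the 13 without, 7 fell, with a median of -0.26. In AS1 against ApoE, 3 with the core rose and 1 fell, and 5 without it rose, with medians of 0.19 and 0.17. From ApoE to AS2, 6 of the 14 with the core and 10 of the 13 without it rose, with medians of 0.23 and 0.39. Isg20, without the core, rose in ApoE and fell in AS2. Of all rows, 8.36% fell in ApoE, 7.74% rose in AS1 and 7.59% rose in AS2. The split by core was not tested. Irf7, Oasl2 and Dtx3l had windows without these letters, which says nothing about the factor.

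ApoE plasma gave the lowest levels of these genes. The ApoE mean was the lowest of the 4 groups in 32 of 39 members (82.1%), against 22.5% of all rows, and the highest in 0 of 39, against 21.9% of all rows. WT was highest in 17 members (43.6%, against 26.6% of all rows) and AS2 in 14 (35.9%, against 23.3%). AS1 was highest in 8 (20.5%, against 28.2%). The members in which another group was lowest were Isg15, Mx2, Oas1g, Ifih1 and Trim30a, lowest in AS1, and Isg20 and Bst2, lowest in AS2. Averaged over the 39 members, the ApoE arrays lay 0.37 to 0.50 log2 units below the WT mean and overlapped no other group. The AS1 arrays lay 0.08 to 0.19 below it, and the AS2 arrays between -0.14 and 0.02. The levels of 4 members in ApoE, Ifit2, Isg15, Mx1 and Mx2, were at or below the array median of 4.37, where differences are compressed.

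**Figure D1:**
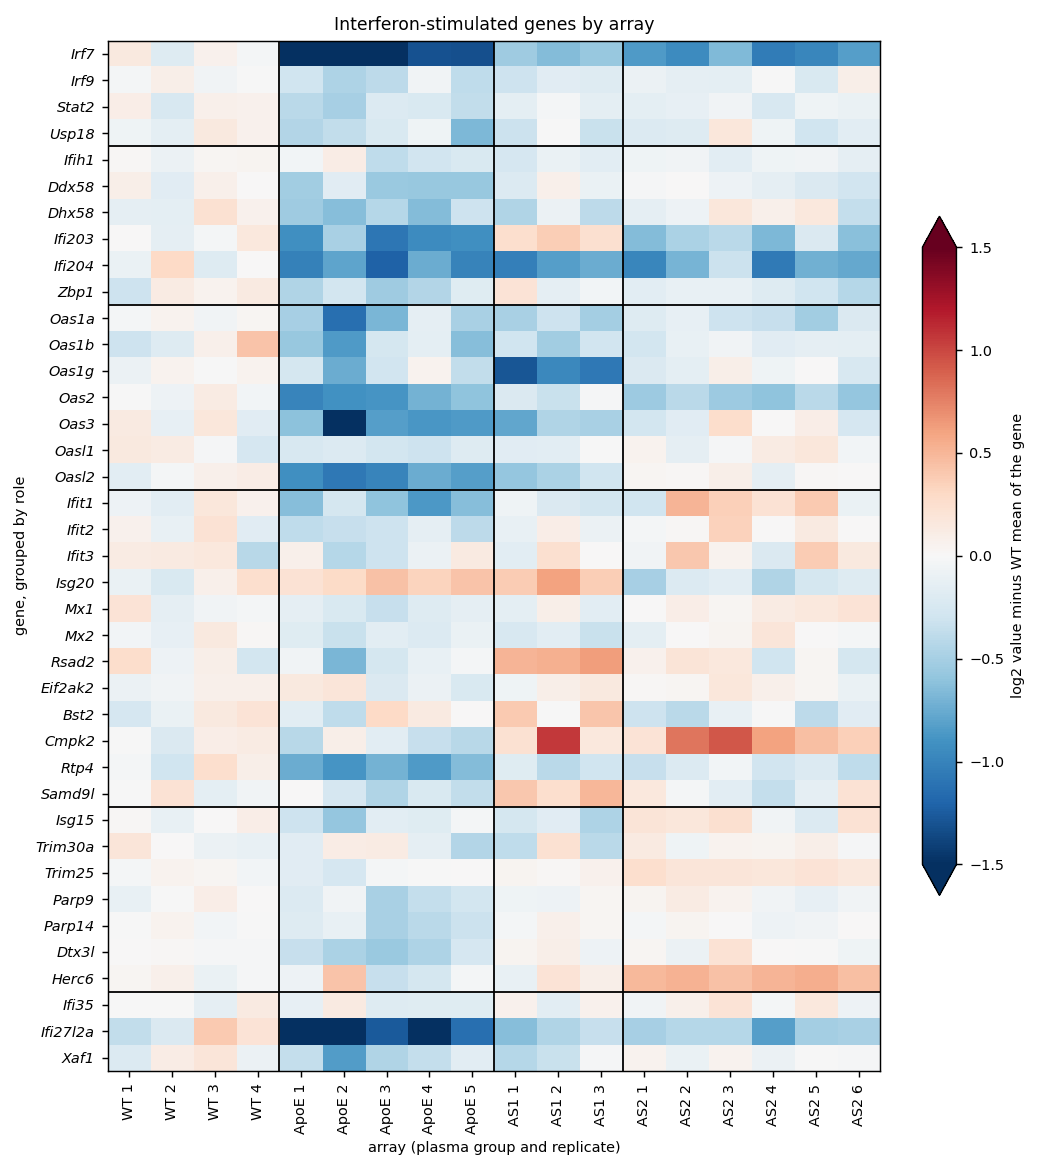
Heat map of the 39 interferon-stimulated genes with a row (vertical axis, grouped by role) on the 18 arrays (horizontal axis, by plasma group and replicate). Colour is each array's log2 value minus the mean of the 4 WT arrays, and the scale stops at its ends. The 5 ApoE arrays are below WT in most rows, with Isg20 the other way, and Oas1g is lowest in the 3 AS1 arrays.

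From WT to ApoE, 23 members fell (59.0%), where 8.36% of all rows fell, and 1 rose, where 8.54% of all rows rose, at a Benjamini-Hochberg adjusted p below 0.05 over 24705 rows. The median difference was -0.32, against -0.0036 over all rows. In 14 members every ApoE array lay below every WT array (6.9% of all rows), and in 0 above (7.4%). The 15 others did not pass. Centred on 7 housekeeping genes instead, which moved the median of all rows by 0.125, 16 fell and 1 rose with a median of -0.19. The 7 members that no longer passed there were Ifit2, Oasl1, Irf9, Usp18, Zbp1, Parp9 and Parp14. Leaving out 1 array ended 7 calls. They were Ifit2 (WT replicate 1 or 3), Isg20 (WT 1 or 2), Oas1b (WT 3 or 4), Parp9 (WT 3), Zbp1 (WT 4), Oasl1 (WT 1, 2 or 3 or ApoE 1, 3 or 4) and Usp18 (WT 1, 3 or 4 or ApoE 1, 2 or 5), with adjusted p from 0.0527 to 0.130. Without both ApoE replicates 2 and 5, 22 members fell and 0 rose.

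From ApoE to AS1, 13 members rose (33.3%), where 7.74% of all rows rose, and 1 fell, where 8.8% fell, with a median of 0.20 against 0.0019 over all rows. The arrays did not overlap in 16 members that were higher (9.04% of all rows) and 1 that was lower (9.2%). From ApoE to AS2, 24 rose (61.5%), where 7.59% rose, and 1 fell, where 8.02% fell, with a median of 0.28 against -0.0024. The arrays did not overlap in 14 higher members (5.44%) and 1 lower (5.48%). Under housekeeping centring 10 rose and 1 fell in AS1, where Ddx58, Zbp1 and Parp14 no longer passed and the median was 0.086. In AS2 16 rose and 1 fell, with a median of 0.19, and Mx2, Oas2, Oasl1, Irf9, Stat2, Ddx58, Ifi203 and Parp9 no longer passed. Without both ApoE replicates 2 and 5, 16 rose and 1 fell in AS1, and 21 rose and 1 fell in AS2. The 3 comparisons share the 5 ApoE arrays, so a chance deviation of those arrays enters AS1 and AS2 against ApoE with the same sign and ApoE against WT with the opposite sign.

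**Figure D2:**
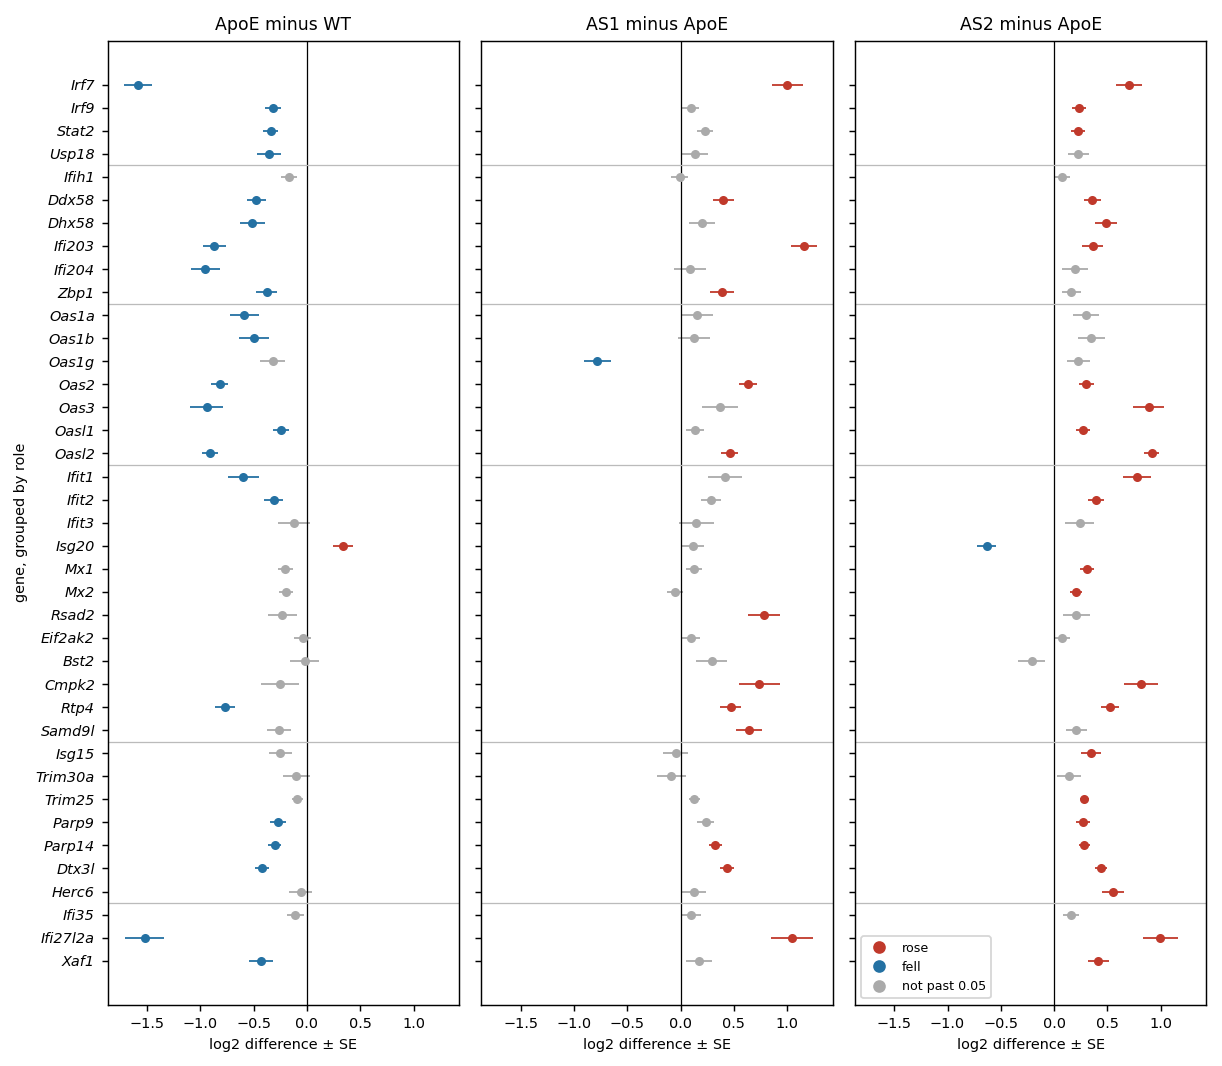
Log2 difference with its standard error (horizontal axis) for the 39 interferon-stimulated genes (vertical axis, grouped by role) in ApoE minus WT, AS1 minus ApoE and AS2 minus ApoE. Red points rose, blue points fell and grey points did not pass an adjusted p of 0.05; 23 genes fell in the first panel and 13 and 24 rose in the others.

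All 4 transcription factors and feedback genes fell in ApoE, where 8.36% of all rows fell. Irf7, which carries the signal on to further interferon, changed most among the members. Irf7 read 9.14, 8.80, 9.06 and 8.97 with WT plasma, 7.34, 6.84, 7.50, 7.69 and 7.67 with ApoE plasma, 8.46, 8.34 and 8.43 with AS1 plasma, and from 7.94 through a median of 8.10 to 8.33 with AS2 plasma. The 4 groups did not overlap, with WT highest, then AS1, AS2 and ApoE. From WT to ApoE it fell by 1.59 ± 0.13 (SE) log2 units, a 3.0-fold fall (adjusted p = 1.82e-07). AS1 was 2.00-fold above ApoE (difference 1.0 ± 0.15, adjusted p = 0.000107) and AS2 1.63-fold above it (0.70 ± 0.12, adjusted p = 0.000394). Both were below WT, AS1 by 0.59 (adjusted p = 0.0202) and AS2 by 0.89 (adjusted p = 6.53e-05), and the difference of AS2 from AS1 did not pass (-0.30, adjusted p = 0.164).

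Stat2 and Irf9, members of the ISRE-binding complex, changed less. Stat2 was 7.87 ± 0.16 (SD, n = 4) in WT and 7.53 ± 0.12 (n = 5) in ApoE (difference -0.34, adjusted p = 0.00233), and Irf9 was 7.45 ± 0.06 and 7.13 ± 0.16 (-0.32, adjusted p = 0.00535). Both rose in AS2, Stat2 by 0.22 and Irf9 by 0.23, but these calls were lost with 1 array left out. For Stat2 this was ApoE replicate 1, 2 or 5 or AS2 replicate 3 or 5 (adjusted p 0.0541 to 0.0769), and for Irf9 ApoE replicate 2, 3 or 5 or AS2 replicate 4 or 6 (0.0561 to 0.073). In AS1, Stat2 was 7.76 ± 0.07 (n = 3), 0.23 above ApoE (adjusted p = 0.0542), and Irf9 was 7.23 ± 0.07. Usp18, which removes ISG15 and holds back receptor signalling, fell by 0.35 in ApoE (adjusted p = 0.0402) and passed in neither AS1 (0.13) nor AS2 (0.23).

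Of the 6 nucleic acid sensors, 5 fell in ApoE, while 3 rose in AS1 and 3 in AS2. Of all rows, 8.36% fell in ApoE against WT, 7.74% rose in AS1 against ApoE and 7.59% rose in AS2 against ApoE. Ifi203 read 8.05, 7.92, 8.02 and 8.21 in WT, 7.12, 7.57, 6.96, 7.10 and 7.13 in ApoE, 8.30, 8.42 and 8.29 in AS1, and 7.37, 7.49 and 7.84 as lowest, median and highest in AS2. AS1 was above every other array, ApoE was below WT and AS1, and its replicate 2 overlapped AS2. The fall from WT to ApoE was 0.87 ± 0.11 (1.83-fold, adjusted p = 1.53e-05), and the rise from ApoE to AS1 was 1.16 ± 0.12 (2.23-fold, adjusted p = 4.75e-06). AS2 rose by 0.36 over ApoE (adjusted p = 0.0159), a call lost without ApoE replicate 3 (0.0508), and under housekeeping centring (0.0906). AS2 was 0.80 ± 0.12 below AS1 (adjusted p = 5.39e-05).

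Ifi204, a close relative of Ifi203 that senses DNA, differed from it after the first comparison. It was 7.58 ± 0.22 in WT, 6.63 ± 0.19 in ApoE, 6.71 ± 0.14 in AS1 and 6.82 ± 0.26 in AS2. The fall of 0.95 ± 0.13 in ApoE (1.94-fold, adjusted p = 5.28e-05) was not followed by a called rise in AS1 (0.09, adjusted p = 0.814) or AS2 (0.20, adjusted p = 0.385). AS1 and AS2 remained below WT by 0.87 and 0.76 (adjusted p = 0.00111 and 0.000333).

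Among the sensors of viral RNA, Ddx58, whose promoter is printed above, was 8.64 ± 0.12 in WT, 8.17 ± 0.17 in ApoE, 8.57 ± 0.14 in AS1 and 8.52 ± 0.11 in AS2. It fell by 0.48 (adjusted p = 0.000775), rose by 0.40 in AS1 (adjusted p = 0.00693, 0.054 without AS1 replicate 2) and rose by 0.36 in AS2 (adjusted p = 0.00391). Dhx58, the regulator LGP2, fell by 0.51 in ApoE and rose by 0.48 in AS2, while its difference in AS1 was 0.20 (adjusted p = 0.357). Ifih1, the sensor MDA5, passed in none of these comparisons (-0.16, -0.01 and 0.08). Zbp1, a sensor of Z-form nucleic acid linked to cell death, fell by 0.38 in ApoE and rose by 0.39 in AS1, the latter call lost without AS1 replicate 1 (adjusted p = 0.15).

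The oligoadenylate synthetases make 2′-5′-linked oligoadenylates that switch on RNase L. In ApoE 6 of 7 family members fell, where 8.36% of all rows did. Oasl2, a family member that acts beyond this reaction, read 8.22, 8.36, 8.46 and 8.49 in WT, 7.47, 7.30, 7.39, 7.63 and 7.56 in ApoE, 7.80, 7.91 and 8.08 in AS1, and 8.24, 8.40 and 8.47 as lowest, median and highest in AS2. ApoE was below all other arrays, AS1 came next, and WT and AS2 overlapped. ApoE was 0.91 ± 0.07 below WT (1.88-fold, adjusted p = 1.21e-07), AS1 was 0.46 ± 0.08 above ApoE (adjusted p = 0.000539) and AS2 was 0.91 ± 0.07 above it (1.89-fold, adjusted p = 2.97e-08). AS2 was above AS1 by 0.45 (adjusted p = 0.000309), and the means of WT and AS2 were both 8.38.

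Oas2 ran the other way between AS1 and AS2. It read 9.53, 9.46, 9.66 and 9.50 in WT, 8.55, 8.63, 8.65, 8.83 and 8.93 in ApoE, 9.32, 9.20 and 9.52 in AS1, and from 8.93 to 9.13 with a median of 8.99 over the 6 AS2 arrays. AS1 reached into the WT range, AS2 lay below AS1 throughout, and ApoE overlapped only the bottom of AS2. It fell by 0.82 ± 0.08 in ApoE (adjusted p = 8.23e-07), rose by 0.63 ± 0.09 in AS1 (adjusted p = 5.95e-05) and by 0.30 ± 0.07 in AS2 (adjusted p = 0.00571, 0.0617 under housekeeping centring). AS2 was 0.33 below AS1 (adjusted p = 0.00744).

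Oas3 read 6.50, 6.24, 6.54 and 6.19 in WT, 5.76, 4.81, 5.55, 5.50 and 5.52 in ApoE, 5.58, 5.92 and 5.89 in AS1, and from 6.10 to 6.63 with a median of 6.28 over the 6 AS2 arrays. WT and AS2 covered the same range, above all ApoE and AS1 arrays. ApoE was 0.94 ± 0.16 below WT (1.92-fold, adjusted p = 0.000296), AS2 was 0.89 ± 0.14 above ApoE (adjusted p = 0.000196), and AS1 did not pass against ApoE (0.37, adjusted p = 0.184).

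Oas1g moved apart from its paralogs. It read 7.64, 7.78, 7.72 and 7.79 in WT, 7.47, 6.98, 7.44, 7.79 and 7.36 in ApoE, 6.45, 6.76 and 6.66 in AS1, and from 7.49 to 7.81 with a median of 7.63 over the 6 AS2 arrays. The 3 AS1 arrays were below all others, and the remaining groups overlapped. AS1 was 0.78 ± 0.13 below ApoE (1.72-fold, adjusted p = 0.000265), 1.01 ± 0.12 below AS2 (adjusted p = 8.07e-06) and 1.10 below WT (adjusted p = 2.08e-05). The difference of ApoE from WT was -0.32 (adjusted p = 0.0696), and it passed without ApoE replicate 4 (0.00815).

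Oas1a, with the identical 30-base window, fell by 0.59 in ApoE (adjusted p = 0.00465) and was 0.15 above ApoE in AS1 (adjusted p = 0.619) and 0.30 in AS2 (adjusted p = 0.12). Oas1b, the paralog known for resistance to flaviviruses, fell by 0.50 in ApoE (adjusted p = 0.0188, lost without WT replicate 3 or 4) and was 0.13 and 0.35 above ApoE in AS1 and AS2. Neither passed in AS1 or AS2. The Oas1 genes are paralogs whose probe sets may share signal, and crossing between them was not tested. Oasl1, which restrains Irf7 translation, fell by 0.24 in ApoE and rose by 0.27 in AS2.

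**Figure D3:**
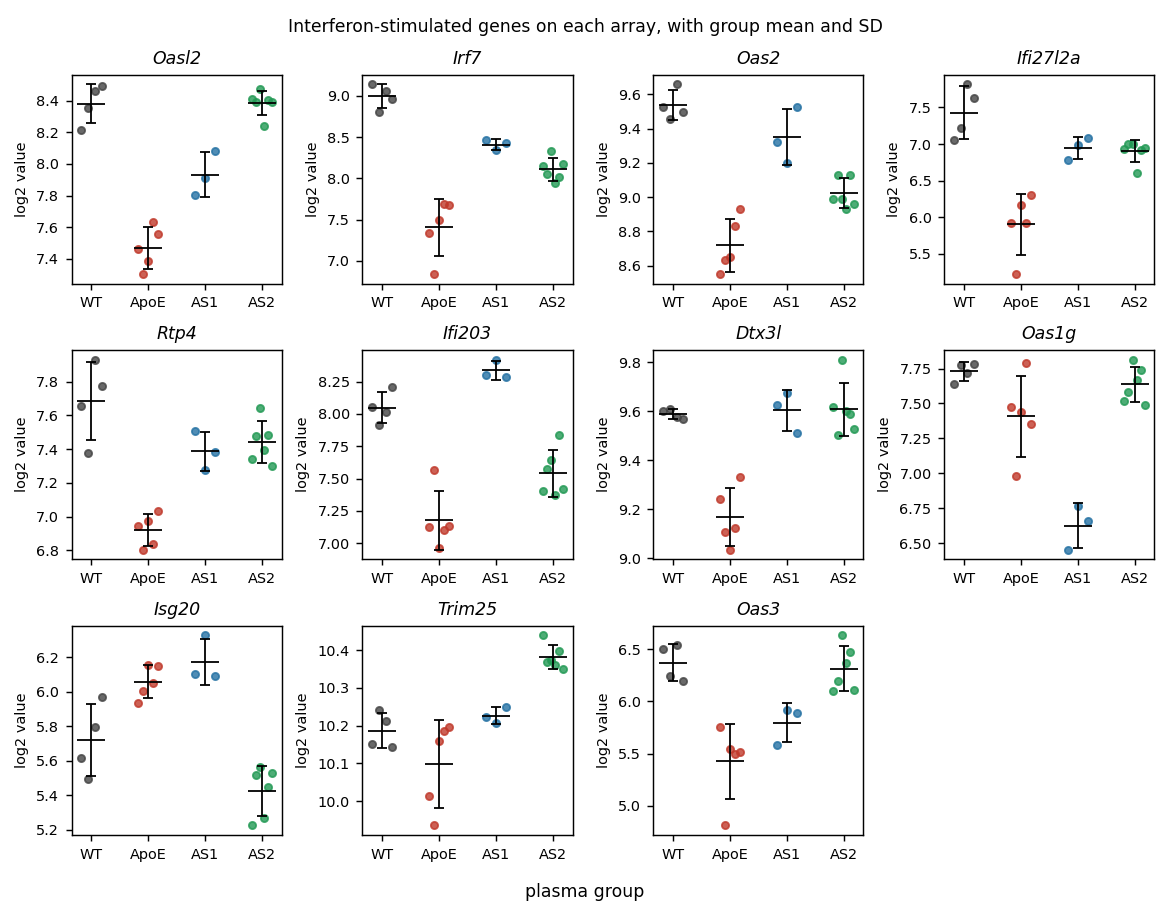
Log2 value (vertical axis) of 11 interferon-stimulated genes on each array, by plasma group (horizontal axis), with the group mean and SD. The 4 groups do not overlap in Irf7, though AS1 and AS2 nearly touch (lowest AS1 8.34, highest AS2 8.33) and their difference did not pass. Oas1g is low in the 3 AS1 arrays, and Isg20 is low in the 6 AS2 arrays.

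Of 12 antiviral effectors, 3 fell, 1 rose and 8 did not pass in ApoE, where 8.36% of all rows fell and 8.54% rose. All but Isg20 had a negative difference there, and Mx1 and Mx2 came near the threshold (adjusted p = 0.0559 and 0.0545). In AS1 4 of them rose, where 7.74% of all rows rose. In AS2 6 rose and 1 fell, where 7.59% and 8.02% of all rows did. Rtp4, an interferon-induced receptor transporter that restrains the response, read 7.65, 7.38, 7.93 and 7.77 in WT, 6.94, 6.80, 6.98, 6.84 and 7.03 in ApoE, 7.50, 7.28 and 7.38 in AS1, and from 7.30 to 7.64 with a median of 7.44 over the 6 AS2 arrays. ApoE was below all other arrays, and the other groups overlapped. It fell by 0.77 ± 0.09 in ApoE (1.70-fold, adjusted p = 1.06e-05) and rose by 0.47 in AS1 (adjusted p = 0.00308) and 0.52 in AS2 (adjusted p = 0.000197).

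Isg20, an exonuclease that degrades RNA, was the member that rose in ApoE. It read 5.62, 5.49, 5.80 and 5.97 in WT, 5.94, 6.01, 6.15, 6.05 and 6.15 in ApoE, 6.10, 6.33 and 6.09 in AS1, and from 5.23 to 5.56 with a median of 5.48 over the 6 AS2 arrays. All AS2 arrays were below all ApoE and AS1 arrays, and the highest WT array overlapped ApoE. The rise in ApoE was 0.34 ± 0.09 (adjusted p = 0.0166), lost without WT replicate 1 (0.0597) or 2 (0.0686). AS2 was 0.63 ± 0.08 below ApoE (1.55-fold, adjusted p = 2.82e-05) and 0.75 below AS1 (adjusted p = 2.05e-05).

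Rsad2, viperin, and Cmpk2, its neighbour and partner in nucleotide chemistry, did not pass between WT and ApoE (-0.23 and -0.25). Rsad2 was 6.60 ± 0.27 in ApoE, 7.38 ± 0.06 in AS1 and 6.81 ± 0.21 in AS2, so that it rose by 0.79 in AS1 (adjusted p = 0.00123) and did not pass in AS2 (0.21, adjusted p = 0.36), and AS2 was 0.58 below AS1 (adjusted p = 0.00732). Cmpk2 was 5.44 ± 0.22, 6.18 ± 0.50 and 6.25 ± 0.28 in these groups. It rose in AS1 by 0.74 (adjusted p = 0.0119, 0.101 without AS1 replicate 2) and in AS2 by 0.81 (adjusted p = 0.00127). Samd9l, which inhibits translation, rose by 0.64 in AS1 (adjusted p = 0.00115) and was 0.44 lower in AS2 than in AS1 (adjusted p = 0.012).

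Of the Ifit genes, whose proteins bind viral RNA ends, Ifit1 fell by 0.60 in ApoE (adjusted p = 0.00701) and rose by 0.78 in AS2 (adjusted p = 0.000315), and in AS1 it was 0.41 above ApoE (adjusted p = 0.0917). Ifit2 fell by 0.31 and rose by 0.39 in the same comparisons, and Ifit3 passed in none of the 3. Mx1 and Mx2, dynamin-like GTPases, rose in AS2 by 0.31 and 0.20 from levels near the array median, and the Mx2 call was lost without ApoE replicate 2, AS2 replicate 3 or AS2 replicate 4 (adjusted p 0.0503 to 0.0729). Eif2ak2, the kinase PKR, stayed between -0.04 and 0.09 and did not pass. Bst2, the tether tetherin, was among the brightest rows at 10.45 ± 0.22 in WT and 10.43 ± 0.26 in ApoE (adjusted p = 0.965). Bst2 was 10.72 ± 0.23 in AS1 and 10.21 ± 0.16 in AS2, 0.50 lower (adjusted p = 0.0156).

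Among genes of ISG15 tagging, ubiquitin and ADP-ribose transfer, 3 of 7 fell in ApoE, 2 rose in AS1 and 6 rose in AS2. The shares of all rows were 8.36% that fell in ApoE, 7.74% that rose in AS1 and 7.59% that rose in AS2. Dtx3l, a ubiquitin ligase, read 9.60, 9.61, 9.58 and 9.57 in WT, 9.24, 9.11, 9.04, 9.12 and 9.33 in ApoE, 9.62, 9.68 and 9.51 in AS1, and from 9.50 to 9.81 with a median of 9.59 over the 6 AS2 arrays. ApoE was below every other array, and the others overlapped. The fall was 0.42 ± 0.06 (adjusted p = 0.000111) and the rises were 0.44 ± 0.07 in AS1 (adjusted p = 0.000244) and 0.44 ± 0.06 in AS2 (adjusted p = 2.36e-05). Parp9, the partner of Dtx3l, and Parp14, a mono-ADP-ribosyltransferase, fell by 0.27 and 0.30 in ApoE and rose by 0.27 and 0.28 in AS2.

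Trim25, the ubiquitin ligase that activates RIG-I, read 10.15, 10.24, 10.21 and 10.14 in WT, 10.01, 9.94, 10.16, 10.19 and 10.20 in ApoE, 10.22, 10.21 and 10.25 in AS1, and from 10.35 to 10.44 with a median of 10.37 over the 6 AS2 arrays. AS2 was above all other arrays. It was 0.28 ± 0.04 above ApoE (1.22-fold, adjusted p = 0.000144), 0.19 above WT (adjusted p = 0.00649) and 0.15 above AS1 (adjusted p = 0.0392). The last call was lost on leaving out any 1 of the 9 arrays except AS2 replicate 6 (adjusted p 0.0517 to 0.120), and under housekeeping centring (0.0521). ApoE against WT did not pass (-0.09, and 0.04 under housekeeping centring).

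Herc6, the ligase that attaches ISG15 in mice, was 7.60 ± 0.07 in WT, 7.54 ± 0.30 in ApoE, 7.66 ± 0.16 in AS1 and 8.09 ± 0.04 in AS2. It rose in AS2 by 0.55 over ApoE (adjusted p = 0.000601), by 0.49 over WT (adjusted p = 0.0026) and by 0.43 over AS1 (adjusted p = 0.0114). Isg15, whose window with 3 cores is printed above, was 4.60 ± 0.09, 4.35 ± 0.21, 4.31 ± 0.15 and 4.70 ± 0.18 in WT, ApoE, AS1 and AS2. Its rise of 0.35 in AS2 over ApoE (adjusted p = 0.0175) was lost without ApoE replicate 2 (0.0506), and ApoE against WT did not pass (-0.25, adjusted p = 0.135).

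Ifi27l2a, a small membrane protein, had the next largest difference after Irf7. It read 7.06, 7.21, 7.82 and 7.63 in WT, 5.92, 5.22, 6.17, 5.92 and 6.30 in ApoE, 6.79, 6.98 and 7.08 in AS1, and from 6.60 to 7.01 with a median of 6.94 over the 6 AS2 arrays. ApoE was below every other array. AS1 and AS2 overlapped each other, AS2 lay below WT, and AS1 replicate 3 (7.08) was just above the lowest WT array (7.06). From WT to ApoE it fell by 1.52 ± 0.18 (2.88-fold, adjusted p = 9.42e-06), and the rises were 1.04 in AS1 (2.06-fold, adjusted p = 0.00117) and 1.0 in AS2 (2.00-fold, adjusted p = 0.000269). Xaf1, linked to apoptosis, fell by 0.43 in ApoE and rose by 0.42 in AS2, and Ifi35 passed in none of the 3 comparisons.

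Members differed between AS1 and AS2 in both directions. From AS1 to AS2, 7 members rose (17.9%), where 11.5% of all rows rose, and 6 fell (15.4%), where 10.6% fell, with a median of 0.09, counts not far from those of the whole table. The groups did not overlap in 7 higher members (12.3% of all rows) and 7 lower (11.6%). Higher in AS2 were Oas1g, Oas3, Oasl2, Herc6, Isg15, Mx2 and Trim25, and lower were Ifi203, Isg20, Rsad2, Bst2, Samd9l and Oas2. The calls ran from 6 without AS1 replicate 3 to 15 in the leave-1-out fits, and Oas1g, Oasl2, Ifi203, Isg20 and Rsad2 passed in all of them. The other 8 calls were lost without AS1 replicate 1 (Herc6), without AS1 replicate 3 (Isg15, Mx2, Oas2 and Samd9l), without either of these (Bst2), or without any of 5 (Oas3: these, AS2 3, 4 and 5) or 8 arrays (Trim25). The 12 neutrophil markers fell in the same comparison.

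Against WT, 2 members rose and 5 fell in AS1, where 4.84% and 4.64% of all rows did, and 3 rose and 6 fell in AS2, where 8.65% and 9.2% did. Groups did not overlap in 5 higher (8.77%) and 10 lower (9.38%) members in AS1, and in 3 higher (8.41%) and 6 lower (8.59%) in AS2. Irf7 and Ifi204 were below WT in both. Oas2 and Ifi203 were each 0.51 below WT in AS2, while Cmpk2, Herc6 and Trim25 were above it by 0.56, 0.49 and 0.19. In AS1, Oasl2 was 0.45 below WT and Rsad2 0.56 above. The AS1 count was 4 without WT replicate 3 or without any of the 3 AS1 arrays, and Oas1g, Ifi204 and Oasl2 passed in every leave-1-out fit. The Rsad2 call was lost without any 1 of the 7 arrays but WT replicate 1 (adjusted p 0.0511 to 0.121), the Irf7 call without WT replicate 1 or 3 or any AS1 array (0.0515 to 0.0701), the Mx2 call without WT 1, 3 or 4 or AS1 1 or 3, and the Isg20 call without AS1 2. In AS2 against WT, the Cmpk2 call was lost without WT replicate 1 or 2 or AS2 replicate 2, 3 or 4 (0.0501 to 0.0930), that of Isg20 without WT 3 or 4 or AS2 1 or 4, and that of Ifi27l2a without WT 3 or 4 or any AS2 array.

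Most type I interferon genes were at or below the array median of 4.37, with 4 or 5 of 13 rows above it in each group. Ifna4 (group means 6.28 to 6.89) and Ifna5 (5.72 to 6.03) were the brightest of them. Of these 13 rows (17 genes were listed), 0 passed in ApoE against WT, AS1 against ApoE or AS2 against ApoE by limma, with 0, 1 and 0 at an unadjusted p under 0.05. Ifnb1 was 3.63 ± 0.06 in WT and 3.63 ± 0.03 in ApoE. Ifna4 was 0.61 lower in AS2 than in AS1 (adjusted p = 0.0198). Of 4 receptor and kinase genes, Tyk2 fell by 0.44 in ApoE (8.84 ± 0.05 to 8.40 ± 0.16, adjusted p = 8.69e-05) and rose by 0.48 in AS1, Ifnar1 fell by 0.28 in ApoE (adjusted p = 0.000768, 0.0961 under housekeeping centring), and Jak1 was 0.18 lower in AS2 than in ApoE.

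Of 14 genes that sense microbial products or induce interferon, 6 fell in ApoE and 0 rose, where 8.36% and 8.54% of all rows did. Their mean was 0.19 to 0.51 below WT on the ApoE arrays and 0.22 to 0.26 below it on the AS2 arrays. Those that fell included Irf5, a transcription factor of Toll-like receptor signalling (-0.66, adjusted p = 4.61e-07), Ikbke, a kinase that activates Irf3 and Irf7 (-0.54, adjusted p = 2.51e-06), and Myd88, the receptor adaptor (-0.88, adjusted p = 4.12e-06). From ApoE to AS1, 5 rose and 1 fell, led by Tlr9, the sensor of unmethylated DNA (1.11, adjusted p = 9.05e-06), and Ikbke (0.43). From ApoE to AS2, 4 rose and 2 fell, with Irf5 (0.40) and the DNA-sensing adaptor Tmem173, now called Sting1 (0.84, adjusted p = 0.000132), higher and Ikbke lower (-0.25). Ikbke was 0.68 lower in AS2 than in AS1 (adjusted p = 2.79e-07).

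The shares of all rows that rose and fell were 8.54% and 8.36% in ApoE against WT, 7.74% and 8.8% in AS1 against ApoE, and 7.59% and 8.02% in AS2 against ApoE. Of 10 negative regulators, 2 rose and 4 fell in ApoE, among them the phosphatase Ptpn6 (-0.60, adjusted p = 5.06e-09) and the nucleotide hydrolase Samhd1 (-0.53, adjusted p = 5.77e-06), and 4 rose and 0 fell in AS1, while 4 rose and 1 fell in AS2. In the interferon-gamma axis, 5 of 8 fell in ApoE, among them Ifngr2 (-0.49), Irf1 (-0.71) and Ciita, the regulator of class II antigen presentation (-1.23, adjusted p = 0.000193). In AS1, 4 of these 8 rose, with Ciita at 1.63 and Irf1 at 0.68, and in AS2 2 rose and 2 fell. A separate list of 38 further interferon-stimulated genes with a row (of 40) showed 15 lower and 3 higher in ApoE, 13 higher and 1 lower in AS1, and 13 higher and 0 lower in AS2. Epsti1 (-1.03) and Znfx1 (-0.39) were among those that fell, and Ifitm6 rose by 1.14 (adjusted p = 4.22e-06). Slfn9, which was 1.32 higher in AS2 than in ApoE (adjusted p = 9.5e-07), was 0.81 higher in ApoE than in WT.

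**Figure D4:**
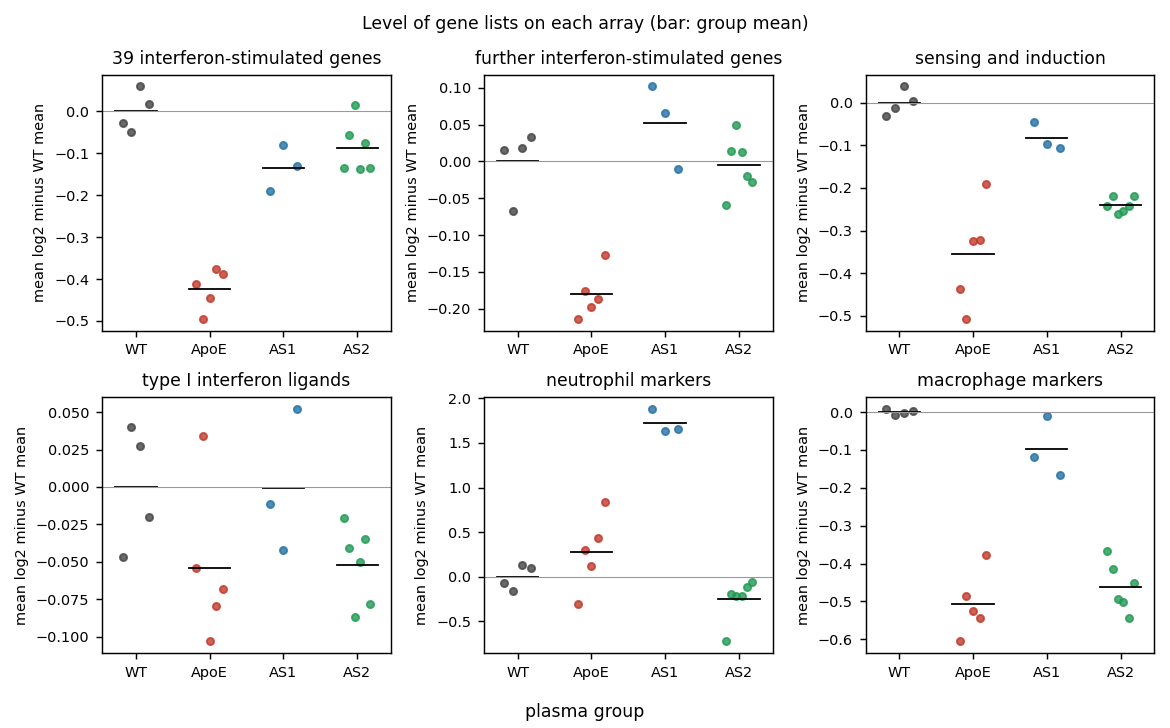
Mean log2 value of each gene list on each array minus its mean over the 4 WT arrays (vertical axis), by plasma group (horizontal axis), with bars at group means. The 39 interferon-stimulated genes are lowest in the 5 ApoE arrays (-0.50 to -0.37), the neutrophil markers are highest in the 3 AS1 arrays, and the mean of the macrophage markers is below WT in ApoE and AS2.

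The macrophage marker mean was below WT in both ApoE and AS2, while the mean of the interferon-stimulated genes was low in ApoE and near WT in AS2. From WT to ApoE, 5 of the 7 markers fell and Cd68 rose, and from WT to AS2, 5 fell and 0 rose. Among all rows, 8.36% fell and 8.54% rose in ApoE against WT, and 9.2% fell and 8.65% rose in AS2 against WT. Aif1 had the widest gap, with means of 8.15 in WT, 6.73 in ApoE and 6.70 in AS2, while Itgam was 11.72 in WT, 10.88 in ApoE and 11.83 in AS2. From ApoE to AS2, 2 markers rose and 2 fell, where 7.59% and 8.02% of all rows did. Whether macrophage content or state had a part in the level of the 39 genes was not tested.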

How the data were processed

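The deposited values are log2 expression values, which the authors made from Affymetrix arrays with RMA (robust multi-array averaging), per the submitters' processing notes. No version, probe set definition or scan batch is given in the sources used here. Samples were grouped by the plasma named in their labels, and rows were named through the platform annotation, which gave 24705 rows with 1 symbol and 723 with none. Symbols were also matched through RefSeq synonyms for the pathway lists.

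A linear model with 1 mean for each of the 4 groups was fitted to all 18 arrays with limma 3.58.1 (lmFit, eBayes) in R 4.3.3, with 14 residual degrees of freedom and no covariate. Each of 6 comparisons was adjusted by Benjamini-Hochberg over the 24705 named rows, and "rose" and "fell" stand for an adjusted p below 0.05. Changes are on the log2 scale, and rows near the array floor can understate a fold. The fit was tested on simulated data first.

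Members and gene lists were chosen with earlier results of these data known. Values by array (for the 6 AS2 arrays the lowest, median and highest) are given for the up to 5 members with the smallest p in each of the 3 main comparisons and for the member with the smallest F-test p in each role, which made 11 members. Up to 3 rows with the smallest p are named from each pathway list, and further rows named were picked after their values were seen. Promoters in full are those of the 3 members with the smallest p in ApoE against WT that hold an ISRE core. The alternatives were 11 settings and 18 fits that each left out 1 array.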

Additional observations from a re-analysis of the deposited data

Results flagged for a closer look

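In 9 of 117 member groups of 4 to 6 arrays, the highest or lowest array stood far from the others by Dixon's test, which chance does in about 1 of 20 groups. Of these, 4 were in ApoE replicate 2. Oas3 read 4.81 there against 5.50 to 5.76 on the other ApoE arrays, Ddx58 read 8.48 against 8.07 to 8.12, Ifi35 read 7.58 against 7.25 to 7.32, and Ifi203 read 7.57 against 6.96 to 7.13. That array was therefore lowest in Oas3 and highest in the other three.

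In AS2, replicate 4 was low in Oasl2 (8.24 against 8.39 to 8.47) and in Ifi27l2a (6.60 against 6.92 to 7.01), and replicate 3 was high in Dtx3l (9.81 against 9.50 to 9.62). In WT, Ifit3 read 4.80 on replicate 4 against 5.34 to 5.38, and Stat2 read 7.63 on replicate 2 against 7.93 to 7.98.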

How the results depend on the processing

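Centring on 7 housekeeping genes moved the median of all rows by 0.125 in ApoE against WT, -0.117 in AS1 against ApoE and -0.0896 in AS2 against ApoE. The median member difference became -0.19, 0.086 and 0.19 in these comparisons. In these comparisons 7, 5 and 2 members, 0 of them called, turned direction, among them Trim25 in ApoE against WT (0.0358) and Isg20 in AS1 against ApoE (-0.0022). With 1 array left out, members called numbered 4 to 8 in AS1 against WT and 6 to 15 in AS2 against AS1, and the median member difference ran from -0.187 to -0.0898 and from 0.0372 to 0.127. In the comparisons with ApoE the counts ran from 19 to 25 (ApoE against WT), 12 to 17 (AS1) and 22 to 28 (AS2). With the replicate block the counts were 23, 15 and 24, and 10 in AS2 against AS1, 5 in AS1 against WT and 9 in AS2 against WT, where 13, 7 and 9 were called without it. Same-numbered arrays did not deviate together (correlations -0.207 to 0.133 over 22 pairs, 4 above 0.1), and 7 of 44 arrays correlated best with their own number. No pairing by number was seen, but groups this small cannot show that same-numbered arrays shared no culture or plasma. The fits of the 2 compared groups alone called 19, 14 and 25 members. The number of arrays limits precision, and levels near the array floor limit the Ifit2, Isg15, Mx1 and Mx2 differences.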
